A study of Mus musculus with 7 samples.

Results

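The mouse gene Trp63 encodes p63, a transcription factor of the p53 family, and its locus was described here by the sites of open chromatin called within and around it. The Trp63 sites were the ATAC-seq peaks of 7 libraries that lay inside the gene body (chr16:25683763-25892088 in GRCm38, 208.3 kb) or within 100 kb of it. They came to 128 of 408868 autosomal peaks, and joined into 41 of 128642 merged sites when peaks sharing at least 1 bp were put together. The family member Trp73 (chr4:154056249-154139875), which encodes p73, was treated in the same way for comparison and had 178 peaks in 39 sites. ATAC-seq maps open chromatin through a transposase that cuts and tags DNA where it is accessible, and the Omni-ATAC protocol was used for every library. The labels name neither a strain nor the sex of the mice and do not say how many animals were pooled.

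The ectoderm libraries (replicates 1 and 2) came from the surface layer of first pharyngeal arches taken at embryonic day 11.5, peeled from the mesenchyme after enzyme treatment. The Sox2-positive libraries (replicates 1 and 2) came from cells of the labial cervical loop of the lower incisor at postnatal day 2 (P2), sorted for the GFP of a Sox2-GFP line, in which the promoter of Sox2 itself drives GFP. The submitters call these cells dental epithelial stem cells. Whole lower incisor, whole lower first molar and whole upper first molar at P2 gave 1 library each, so nothing that rests on a whole tooth has a replicate check. Whether replicates came from separate animals is not stated, and spread between them may be technical. In bulk libraries, fewer cells with an open site and a weaker opening in every cell cannot be told apart. The ectoderm and P2 libraries differ in age, in tissue and in how the material was isolated, and these cannot be told apart either.

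p63 is made from a pair of promoters. The outer one gives the long TAp63 form, known from oocytes, and the other, inside the third intron, gives the short ΔNp63 form, which is the main form in basal cells of stratified epithelia and is needed for skin, limbs and teeth. p73 has the same layout of an outer and an internal promoter and is known for its roles in multiciliated cells and the developing brain. Members of the family bind a shared DNA element built from a pair of adjacent decamers. Introns of Trp63 are known to hold enhancers that keep it active in epithelial cells.

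The sequences of both Trp73 promoters are shown first because the outer and the internal start were under peaks in different libraries. They are the 250 bases before each start, on the minus strand of chromosome 4 in the RefSeq promoter table (GRCm38.p6). In the first, capitals mark each CG pair. In the second, capitals mark the best match to the p53-family element.
Trp73 long promoter, chr4:154139876-154140125: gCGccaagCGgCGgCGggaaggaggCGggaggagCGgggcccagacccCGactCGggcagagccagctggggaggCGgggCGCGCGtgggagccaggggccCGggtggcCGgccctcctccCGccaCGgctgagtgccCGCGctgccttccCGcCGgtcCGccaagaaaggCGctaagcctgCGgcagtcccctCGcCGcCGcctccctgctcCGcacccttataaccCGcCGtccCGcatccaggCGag
Trp73 internal promoter, chr4:154097174-154097423: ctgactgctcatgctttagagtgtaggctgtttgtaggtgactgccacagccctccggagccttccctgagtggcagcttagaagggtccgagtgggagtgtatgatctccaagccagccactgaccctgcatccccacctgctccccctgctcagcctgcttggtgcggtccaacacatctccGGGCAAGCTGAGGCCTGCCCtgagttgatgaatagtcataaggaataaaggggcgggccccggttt
The promoter window of 300 bases (250 before the start and 50 after) held 39 CG pairs at the long start, more than in 95.5% of 32544 promoters, whose median was 7. At the internal start, 42.7 kb further along, it held 6, more than in 43.2% of promoters. GC content was 77.7% and 57.7%. The capitals of the internal promoter matched 18 of the 20 letters of the element (chr4:154097220-154097239). Only 0.802% of promoters contained a match at least that good. The best match in the long promoter had 14 letters, which 98.5% of promoters reached. The AP-1 motif TGANTCA, searched on both strands, was in neither window and in 7.79% of all promoters.

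Peaks lay over the long Trp73 start in both ectoderm libraries and in no P2 library. They spanned chr4:154139252-154140392 in replicate 1 (deposited signal 755.8) and chr4:154139253-154140374 in replicate 2 (signal 789.1), above 56.9% and 56.8% of the peaks of their own lists. The 5 P2 libraries had their nearest peak 2.34 kb away, over the start of Wrap73, a neighbouring gene of a WD-repeat protein. The internal Trp73 start lay under peaks of other libraries. Only lower molar (chr4:154097068-154097328, signal 333.5) and upper molar (chr4:154096951-154097339, signal 248.6) had a peak there, low in their lists at percentiles 25.9 and 10.8, and both peaks covered the 20-base match. Among the 38000 autosomal peaks with the highest −log10 p of each library, used below as lists of equal length, the long start was kept in ectoderm replicate 2 and lost in replicate 1, and the internal start was kept in no library. A peak's percentile here is the share of its own list with a lower signal, and since lists differ in length, percentiles describe a list and do not measure a change between libraries.

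At Trp63 the outer promoter was not under a peak in any library. By the known direction of the gene its start is chr16:25683763, and the nearest peak was 6.64 kb away in both ectoderm libraries, 6.82 kb in Sox2-positive replicate 1, 151.48 kb in Sox2-positive replicate 2, 6.9 kb in incisor, 4.38 kb in lower molar and 4.22 kb in upper molar. The far end of the gene was 25.78 kb or more from any peak. The start of the short transcript was not placed here, nor were exons told from introns, so sites are given by their distance from the outer start. Sites were crowded into the later part of the gene, where 24 of the 31 body sites lay between 91.3 and 182.0 kb. Of the 41 sites, 5 lay upstream, 31 in the gene body and 5 downstream, and no site lay between 182.0 kb and 263.6 kb.

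Trp63 had 31 and 18 peaks in the ectoderm replicates, 8 and 3 in the Sox2-positive ones, 12 in incisor, 28 in lower molar and 28 in upper molar. Ectoderm and the molars were high, both Sox2-positive libraries low, and the ectoderm and Sox2-positive groups did not overlap. The same held, in the same direction, in 48.5% of all gene windows with full lists and 22.5% with equal lists of 38000 peaks. The mean was 24.5 ± 9.19 for ectoderm against 5.5 ± 3.54 for Sox2-positive cells (SD, n = 2 each), a difference of 19 peaks. The exact two-sided permutation test gave p = 0.33, the smallest that 2 libraries against 2 allow. List length enters these counts, since the autosomal lists ran from 38326 peaks in Sox2-positive replicate 2 to 80850 in ectoderm replicate 1. With 38000 peaks per library the counts were 18 and 17 for ectoderm, 7 and 3 for Sox2-positive cells, 7 in incisor, 15 in lower molar and 14 in upper molar. The means were then 17.5 ± 0.707 and 5 ± 2.83 (SD, n = 2 each), a difference of 12.5 peaks (exact p = 0.33). Without ectoderm replicate 1 the difference with full lists was also 12.5.

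**Figure D1:**
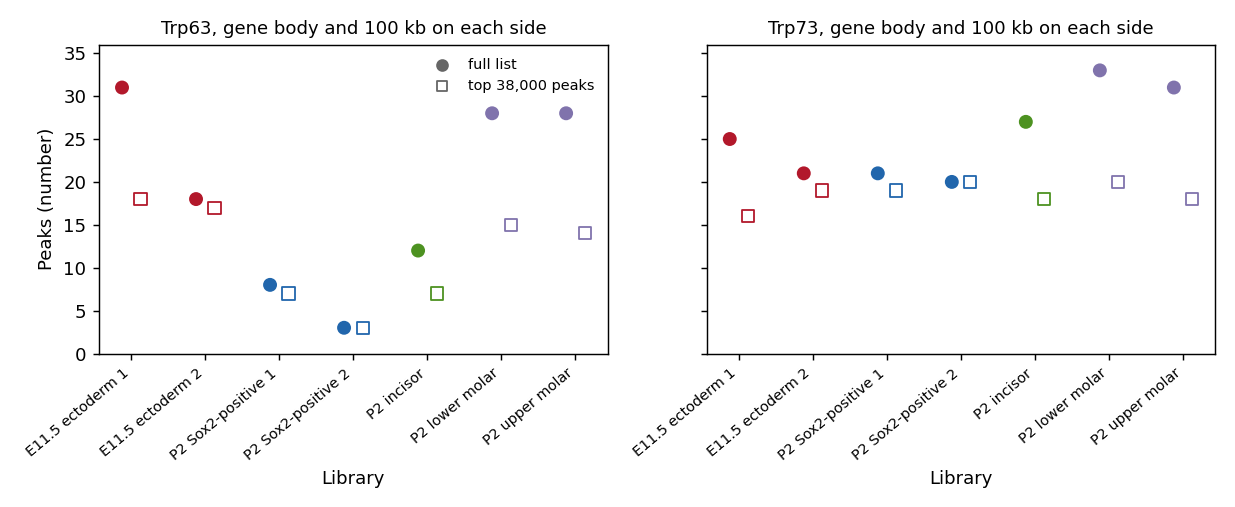
Number of peaks within the gene body and 100 kb on each side of Trp63 (left) and Trp73 (right), 1 point per library, with full lists as filled circles and the 38000 peaks with the highest −log10 p as open squares. At Trp63 the ectoderm libraries and molars lie above the Sox2-positive libraries in both lists, while at Trp73 the 7 squares lie between 16 and 20.

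Set beside all 20661 autosomal protein-coding genes with the same 100 kb flanks, the Trp63 count in the equal-length lists was above that of 95.3% and 92.8% of genes in ectoderm, 89.2% in lower molar and 87.5% in upper molar. It was above 51.6% and 25.7% of genes in Sox2-positive cells and 52.0% in incisor, where the median gene had 6 peaks as in every other library. The difference between ectoderm and Sox2-positive means was exceeded by 2 genes (Meis2 at 16.5 and Lmx1b at 15.5 peaks) and equalled by 2 (Wnt3 and Gm12447), while the median over genes was 0. With full lists 48 genes exceeded it. Sox2-positive counts lay above ectoderm counts without overlap in 1.92% of gene windows with full lists and 20.7% with equal lists. Long genes with wide windows hold more peaks, and the length of genes was not adjusted for.

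The amount of DNA under peaks, with full lists, was 18.68 and 14.53 kb in ectoderm, 3.22 and 1.04 kb in Sox2-positive cells, 5.08 kb in incisor, 12.88 kb in lower molar and 12.62 kb in upper molar. Both ectoderm libraries lay above the molars here, while ectoderm replicate 2 had fewer peaks than either molar. The median site stood at percentiles 57.9 and 54.2 of the ectoderm lists. It stood at 11.0 and 12.9 in the Sox2-positive lists, 26.9 in incisor, 35.8 in lower molar and 42.2 in upper molar. The Sox2-positive lists, the shortest of the 7, thus held the fewest Trp63 sites. In replicate 1 the sites stood at percentiles 66.7, 36.6, 35.7 and, for the rest, 11.0 or below, and in replicate 2 at 23.1 or below. Against the median gene with full lists, replicate 1 had 8 peaks where that gene had 7, and replicate 2 had 3 against 6.

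**Figure D2:**
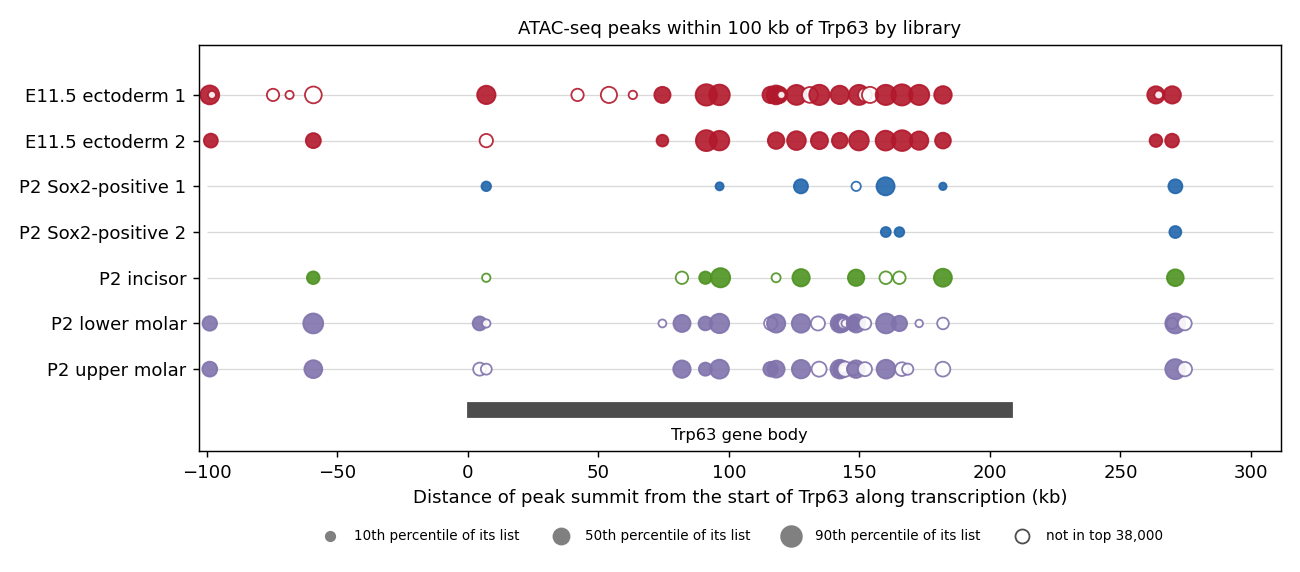
Peaks at Trp63 by library. The x axis is the distance of the summit from the outer start in kb, each row is 1 library, the dark bar is the gene body, larger circles are higher percentiles of signal in the library's own list, and open circles are peaks outside the 38000 of highest −log10 p. The largest circles gather between 91.3 and 172.8 kb in ectoderm, and the Sox2-positive rows hold 7 and 3 sites.

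Of the 41 sites, 12 were shared by the ectoderm pair and missing from both Sox2-positive lists (29.3%), against 17.9% of all merged regions. With equal lists it was 11 of 26 (42.3%), against 15.7%. The reverse, both Sox2-positive and neither ectoderm library, held for 1 site in each case, against 5.90% of regions with full lists and 12.0% with equal lists. Only 1 site was in all 7 libraries and none was with equal lists, where 14.2% and 19.2% of all regions were. Sites in both molars and not in incisor numbered 11 of 41 (26.8%), and 6 of 26 with equal lists (23.1%), against 11.9% and 10.8% of regions.

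The single site in all 7 libraries lay 159.8 kb from the start (chr16:25842712-25844508). Its deposited signal was 2253 and 2165 in ectoderm and 810.1 and 253.5 in Sox2-positive cells, and 340.8 in incisor, 1601 in lower molar and 1160 in upper molar. Those values stood at percentiles 86.1 and 82.3, 66.7 and 12.9, 26.7, 82.5 and 73.3 of the lists. It was high in ectoderm, in the molars and in Sox2-positive replicate 1, and low in Sox2-positive replicate 2 and incisor. In incisor it was outside the equal-length list.

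The strongest ectoderm site was 91.3 kb from the start (chr16:25774438-25775751). Its signal was 4482 and 3575 in ectoderm, at percentiles 97.3 and 92.9. Incisor, lower molar and upper molar had 333.5, 396.1 and 370.7 there, at percentiles 25.7, 34.2 and 30.1, and neither Sox2-positive library had a peak. The peaks were 1264 and 1314 bp wide in ectoderm and 293, 287 and 243 bp in the teeth. Both ectoderm summits were 91.35 kb from the start, while those of incisor, lower molar and upper molar were at 90.99, 90.98 and 90.99 kb. The tooth peaks ended at chr16:25774877 or before, short of the ectoderm summits.

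The second by signal in ectoderm replicate 1 lay 166.1 kb from the start (chr16:25848879-25850804), with 3790 and 3215 in ectoderm (percentiles 95.3 and 90.9). It was absent from Sox2-positive replicate 1, reached 247.6 in replicate 2, and stood at percentile 26.4 in incisor, 45.4 in lower molar and 33.7 in upper molar. Here the ectoderm summits were both 166.3 kb from the start, while the strongest summits of Sox2-positive replicate 2, incisor and lower molar were near 165.3 kb and that of upper molar near 166.3 kb.

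The third by the same measure was 96.4 kb from the start (chr16:25779663-25780752). Signals were 2714 and 1951 in ectoderm, 216.5 in Sox2-positive replicate 1, 1264 in incisor, 1381 in lower molar and 1202 in upper molar, and Sox2-positive replicate 2 had no peak. Their percentiles were 89.8 and 79.8 in ectoderm, 4.8 in Sox2-positive replicate 1 and between 74.3 and 79.0 in the whole teeth. Incisor thus ranked it near the molars, unlike the site at 159.8 kb.

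Of the 12 sites shared by the ectoderm pair and missing from Sox2-positive cells, 3 were in no P2 library at all. The site at 149.9 kb (chr16:25833048-25834269) had signals of 2116 and 1994 at percentiles 84.7 and 80.4. That at 126.1 kb (chr16:25809450-25810323) had 1966 and 1434 at percentiles 83.2 and 72.5. In ectoderm replicate 1, 6 Trp63 sites ranked above the former, from the site at 91.3 kb (97.3) to that at 172.8 kb (86.0). The remaining one, 263.6 kb from the start and downstream of the gene, had 831.4 and 350.4.

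A further 3 of the 12 were shared with lower molar alone. At 172.8 kb (chr16:25855966-25857076) ectoderm had 2240 and 1265 and lower molar 211.3, near the minimum of 200 that every listed peak exceeded. At 74.5 kb the values were 650.5, 313.2 and 216.3, and at 269.8 kb they were 840.9, 418.7 and 284.8. Another 3 were shared with both molars. At 142.5 kb (chr16:25825874-25826572) ectoderm replicate 1 and the molars were alike in rank and ectoderm replicate 2 was lower, with percentiles 69.7 and 47.6 in ectoderm, 68.4 in lower molar and 72.2 in upper molar. At 134.3 kb they were 86.6 and 58.6 in ectoderm, 35.8 in lower molar and 42.5 in upper molar. The most distant, upstream at -98.8 kb, had 73.9 and 35.4 in ectoderm, 39.2 in lower molar and 42.0 in upper molar.

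The last 3 of the 12, including the site at 91.3 kb, were shared with all 3 whole teeth. The site 118.1 kb from the start (chr16:25801517-25802162) had signals of 1301 and 723.3 in ectoderm, 237.4 in incisor, 952.3 in lower molar and 707.5 in upper molar. It was low in incisor (percentile 8.5) and mid-list in the others (54.2 to 73.3). The upstream site at -59.3 kb (chr16:25623930-25624904) stood at percentiles 83.2 and 64.9 in the molars, 55.6 and 42.7 in ectoderm and 27.1 in incisor, so the molars held its highest ranks.

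Sites of the P2 libraries formed nested sets. Sox2-positive replicate 1 had 7 sites and replicate 2 had 3, with 2 in common, and all of them were also in incisor and in both molars. All 12 incisor sites were in both molars. The molars shared 23 sites, 88.5% of the 26 in lower molar. Between the ectoderm replicates, all 17 sites of replicate 2 were among the 30 of replicate 1. Incisor shared 8 of its 12 sites with each ectoderm library. With equal lists the nesting was not complete. Of the 6 sites of Sox2-positive replicate 1, 4 were then in incisor and 4 in each molar. Of the 3 of replicate 2, 1 was in incisor, 3 in lower molar and 2 in upper molar. Of the 7 in incisor, 6 were in each molar. At Trp73, with full lists, all 18 sites of each Sox2-positive library were likewise in incisor and in lower molar. Of the 24 incisor sites there, 23 were in lower molar and 22 in upper molar. Shares over all merged regions were not computed and list lengths differ, so the nesting is not shown to be particular to Trp63.

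In the sorted cells, the site with both replicates and no ectoderm library was 271.0 kb from the Trp63 start (chr16:25954429-25955169), past the end of the gene and 4.12 kb from an end of P3h2, a gene for a collagen prolyl hydroxylase. Signals were 381.2 and 307.1 in Sox2-positive cells, 655.5 in incisor, 1683 in lower molar and 1789 in upper molar. The percentiles were 35.7, 23.1, 55.6, 83.7 and 84.3. It was in all 5 P2 libraries and ranked highest in the molars, and it belonged to the equal-length list of all 5. Whether it acts on Trp63 or P3h2 is not something these data measure.

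The other P2 sites without ectoderm numbered 10. The site at 127.6 kb (chr16:25811077-25811691) had 388.1 in Sox2-positive replicate 1, 749.4 in incisor, 1014 in lower molar and 1027 in upper molar. That at 148.7 kb (chr16:25832143-25832838) had 235.2, 613.8, 907.5 and 810.9 in the same libraries. At 82.0 kb incisor had 331.7, lower molar 703.7 and upper molar 781.6. Both molars alone had 6 sites, at 4.5, 143.1, 143.9, 144.6, 147.7 and 274.7 kb, of which 3 were in an equal-length list. The site at 168.5 kb was in upper molar alone. The run from 142.5 to 148.7 kb held 6 sites in each molar, of which incisor had 1.

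Neighbouring sites under 2 kb apart could belong to opposite sets of libraries, ectoderm or P2. Such pairs were looked for after the sites had been seen. One member was in both ectoderm libraries and no P2 library, the other in at least 2 P2 libraries and no ectoderm library. The ectoderm site at 126.1 kb and the P2 site at 127.6 kb were 753 bp apart, and the P2 site at 148.7 kb and the ectoderm site at 149.9 kb were 209 bp apart. These were 2 of 16 neighbouring pairs at Trp63, against 3.69% of neighbouring regions genome-wide. With equal lists there were 3 of 8, against 4.52%, because the weak lower molar peak at 269.8 kb dropped out and left that site 563 bp from the P2 site at 271.0 kb. Trp73 had 0 of 15 such pairs with full lists and 0 of 4 with equal lists.

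**Figure D3:**
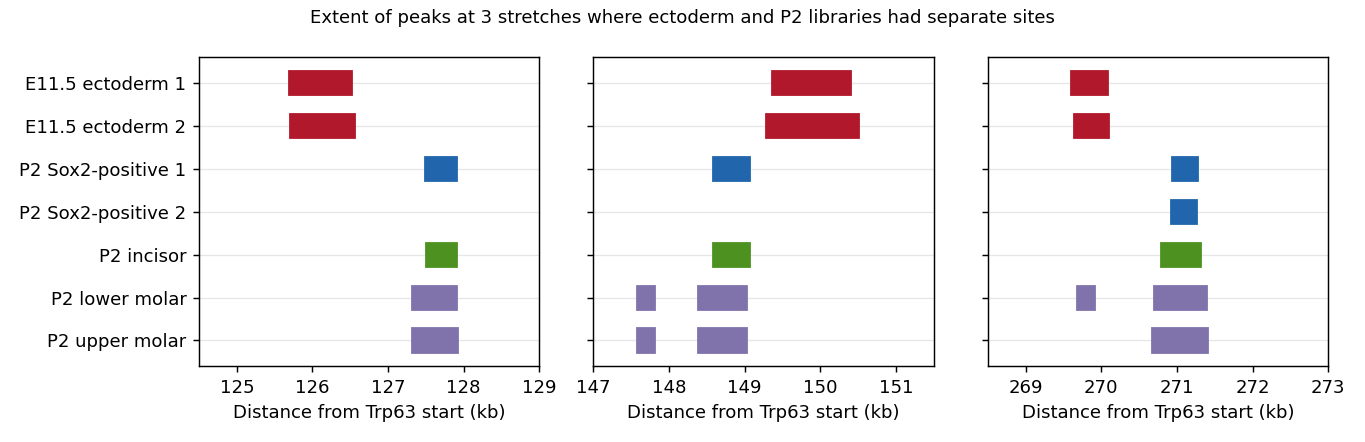
Extent of the peaks of each library at 3 stretches of the Trp63 locus, by distance from the outer start in kb, 1 row per library, with each block spanning the peaks of a merged site. Ectoderm blocks and P2 blocks lie side by side without overlap at 126.1 and 127.6 kb, at 149.9 and 148.7 kb, and at 269.8 and 271.0 kb, where lower molar also has a short block at the ectoderm position.

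The remaining sites complete the list. Those at 6.9 and 182.0 kb were, like the one at 96.4 kb, in every library except Sox2-positive replicate 2. The first had its highest rank in ectoderm replicate 1 (percentile 69.1) and was at or below 31.3 elsewhere. The second ranked highest in incisor (66.1), then 62.2 and 48.3 in ectoderm, 41.3 in upper molar, 21.5 in lower molar and 2.3 in Sox2-positive replicate 1. Sites at 116.1 and 152.0 kb were in ectoderm replicate 1 and both molars. Ectoderm replicate 1 alone had 11 sites, at -98.0, -74.7, -68.3, 41.9, 54.1, 63.2, 119.2, 120.1, 131.3, 154.2 and 264.6 kb. Only the one at 119.2 kb was in its equal-length list.

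Trp73 sat among close neighbours, unlike Trp63. Its window overlapped 9 other protein-coding genes, against 1 (P3h2) for Trp63. Its peaks numbered 25 and 21 for ectoderm, 21 and 20 for Sox2-positive cells, 27 in incisor, 33 in lower molar and 31 in upper molar. Mean counts were 23 ± 2.83 for ectoderm and 20.5 ± 0.707 for Sox2-positive cells (SD, n = 2 each), a difference of 2.5 peaks (exact two-sided permutation p = 0.667). With equal lists they were 17.5 ± 2.12 and 19.5 ± 0.707, and the difference turned to -2 peaks (exact p = 0.667). The median gene had differences of 3 and 0. Trp73 counts were high in every library, above those of 89.0% of genes or more.

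Sites in all 7 libraries numbered 13 of 39 at Trp73 (33.3%) and 11 of 25 with equal lists (44%), where Trp63 had 1 and 0. Of the 13, 2 lay in the Trp73 body, at 34.1 and 68.3 kb, and 6 covered the promoter window of a neighbour (Megf6, Tprgl, Wrap73, Smim1, Lrrc47 and Dffb) and 1 that of A430005L14Rik. Sites shared by the ectoderm pair and missing from Sox2-positive cells numbered 6 of 39 (15.4%) and 2 of 25 with equal lists (8%), near or below the shares of all regions given above. Sites in both Sox2-positive and neither ectoderm library numbered 2 of 39 (5.13%), against 5.90% of all regions. With equal lists they numbered 4 of 25 (16%), against 12.0%.

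**Figure D4:**
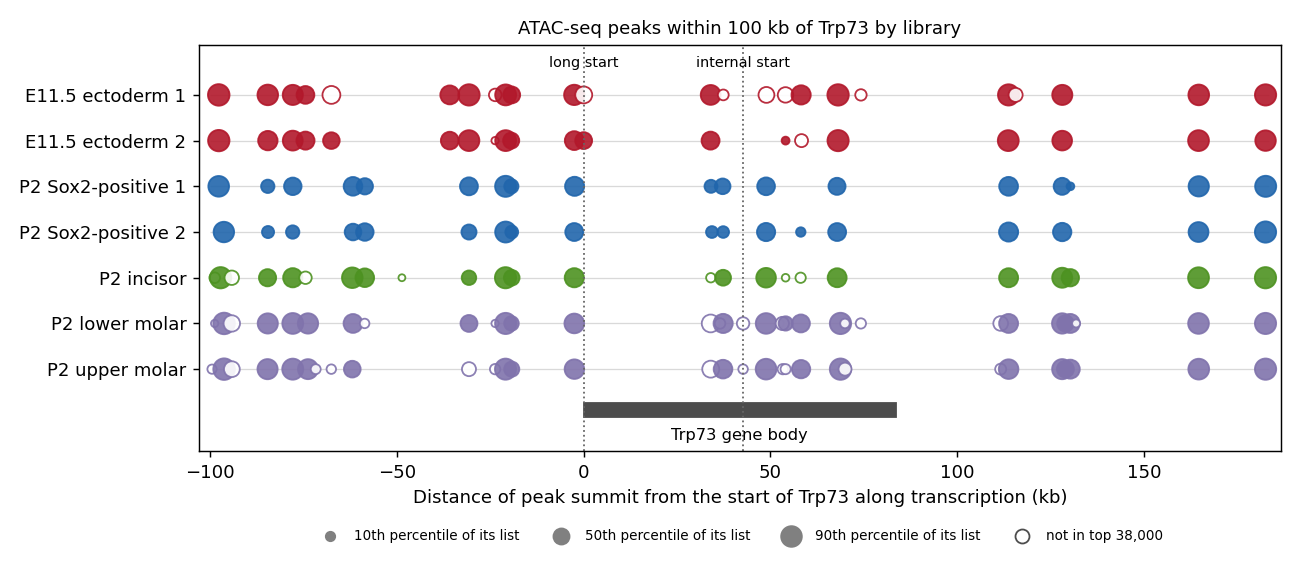
Peaks at Trp73 by library, drawn as for Trp63 with distance along transcription from the long start in kb and dotted lines at the long and internal starts. The circles at the long start are in the ectoderm rows alone and those at the internal start, 42.7 kb along, in the molar rows alone, while many columns are filled in all 7 rows.

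Inside Trp73 the site at 68.3 kb (chr4:154070300-154072799) was the strongest. Its signal was 4695 and 4287 in ectoderm, 635.9 and 848.6 for Sox2-positive cells, 1158 in incisor, 3834 in lower molar and 3936 in upper molar. Its percentiles ran from 95.7 to 97.7 in ectoderm and molars and from 58.3 to 74.4 in the Sox2-positive libraries and incisor. The site at 34.1 kb, also in all 7, ranked at 82.6 and 65.9 in ectoderm, 29.5 and 22.5 for Sox2-positive cells, 10.2 in incisor, 64.2 in lower molar and 57.3 in upper molar. The site at 48.8 kb (chr4:154090565-154091522) went the other way. Its signal was 607.3 in ectoderm replicate 1, 747.6 and 914.4 in Sox2-positive cells, 1492 in incisor, 2311 in lower molar and 2489 in upper molar, and ectoderm replicate 2 had no peak. The site at 37.4 kb had the same 6 libraries.

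The remaining body sites of Trp73 were fewer in libraries. Those at 54.0 and 58.2 kb were in 5 and 6 libraries, those at 53.3 and 70.0 kb in both molars, that at 74.4 kb in ectoderm replicate 1 and lower molar, and those at 36.5 and 52.6 kb in lower molar alone. Upstream of the gene, inside Megf6, sites at -61.9 and -58.4 kb were in both Sox2-positive libraries and not in ectoderm, and one at -35.7 kb was in both ectoderm libraries alone.

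Genes whose counts followed the Trp63 pattern were named by a Pearson correlation of peak counts over the 7 equal-length lists, in the gene body and 10 kb around it, among 2750 genes with at least 10 merged regions. The 5 highest were Tafa2 (r = 0.979), Il1r1 (0.979), Lrp6 (0.975), Col4a3 (0.973) and Galnt14 (0.971). Their counts were low, and no p-value applies, since the 7 libraries share groups. Lrp6, a co-receptor for WNT ligands, had 7 and 6 peaks in ectoderm, 4 and 2 for Sox2-positive cells, 3 in incisor and 5 for either molar, where Trp63 had 15 and 12, 6 and 2, 5, then 12 and 10. For Trp73 the same measure was -0.721, with 4 and 5 peaks for ectoderm, 6 and 7 for Sox2-positive cells, 5 in incisor, 6 in lower molar and 5 in upper molar.

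A list of 25 genes of the p63 network (partners, regulators and targets) was read by gene-end peaks, those whose summit lay 1 kb or less from an end of the gene. All 7 libraries had one at 18 of the 25, among them Krt5, Perp, Itgb4 and Fras1, against 50.3% of all genes. The ectoderm pair without Sox2-positive cells had one at 3, namely Cdkn1a, a cyclin-dependent kinase inhibitor, Zfp750, a regulator of epidermal differentiation, and Tfap2c, an AP-2 factor, against 6.01% of genes. The reverse held for 1, the Notch ligand gene Jag2, against 0.823%. With equal lists the counts were 16 of 25 in all 7 libraries (46.5% of genes), 2 for the ectoderm pair without Sox2-positive cells (Cdkn1a and Zfp750, against 3.45%) and 2 for the reverse (Jag2 and Krt14, against 1.45%). Over the gene body and 100 kb flanks with full lists, ectoderm counts lay above Sox2-positive counts without overlap in 12 of 25 genes. All gene windows gave 48.5%. They lay below in 2, against 1.92% of windows. With equal lists the counts were 7 above and 7 below, against 22.5% and 20.7% of windows.

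Grhl3, a factor of epidermal barrier formation, had 29 and 22 peaks in ectoderm, 5 in each Sox2-positive library, 11 in incisor, 15 in lower molar and 9 in upper molar. Ectoderm was far above the P2 libraries there, and with equal lists the counts were 16 and 15 against 4 and 5. Cldn1, a tight junction gene, had 5 and 4 for ectoderm, 7 and 6 for Sox2-positive cells, 10 in incisor, 14 in lower molar and 12 in upper molar. Satb1, a chromatin organiser, had 4 and 3, 8 and 7, 10, 14 and 13. For both genes the ectoderm libraries were the lowest of the 7, the reverse of Grhl3.

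Marker genes of cell types were read in the same way. Of 6 epithelial markers, gene-end peaks were at 6 and 5 in ectoderm, at 6 in each Sox2-positive library, at 5 in incisor and at 6 in each molar. Of 6 mesenchyme markers, they were at 5 and 4, 6 and 5, 5, 5 and 5. In all 7 libraries, 4 of the epithelial and 3 of the mesenchyme markers had a gene-end peak, against 50.3% of all genes. These counts do not tell the cell types apart. Pdgfra, a receptor of mesenchymal cells, had one in both Sox2-positive libraries and all 3 whole teeth and in neither ectoderm library. Prrx1, a mesenchyme factor, had one in both ectoderm libraries and Sox2-positive replicate 1 and in no other. Of 4 endothelial markers 1 or 2 had a peak in each library, of 3 blood markers 1 (Spi1), and of 3 muscle markers 2 and 1 in ectoderm, 0 for Sox2-positive cells and incisor, and 1 for either molar. Pecam1, Tek, Ptprc, Cd52, Sox10 and Myf5 had none in any library. The part of a mixture of cell types in the Trp63 counts was not tested.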

How the data were processed

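The deposited files are 1 narrowPeak list per library, so peaks were called per library, with Genrich per the names of the deposited lists. FastQC, Trimmomatic, Bowtie2, deepTools, Genrich and the build mm10 are named, without roles, per the submitters' processing notes. Versions, options and read filters are not given in the sources used here. In the deposited lists the authors' signal is, in this caller's usual output, the area under the significance curve of a peak, with a lowest value just above 200. The deposited −log10 p-value is that of the peak. Neither is normalized between libraries, and both served to rank peaks within a list. Signals printed for several libraries do not measure a change between them. The lists hold no read counts, so depth is unknown and no count model was used.

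Autosomal peaks were merged where they shared at least 1 bp. A library had a site if any base of it lay under a peak. Equal-length lists took the 38000 autosomal peaks of highest −log10 p, ties broken by signal. Positions are counted from 1. Gene positions and promoters came from RefSeq tables of GRCm38.p6, the same assembly as mm10, and the direction of Trp63 from general knowledge. Merging was tested on simulated lists. Python 3.11.15, numpy 2.4.6 and pandas 2.3.3 were used. The members and gene lists were chosen with earlier results of these data known. Sites described singly were both Trp73 promoters and the outer Trp63 one, those in all 7 libraries or in 1 replicated group and not the other, and the 5 of highest mean rank. The Trp63 site at 166.1 kb met none of these rules. It was described for its signal in ectoderm replicate 1, so its high ectoderm rank follows from that choice. Other sites are described more briefly. Of the neural markers read, Tubb3 had a gene-end peak in all 7 libraries.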

Additional observations from a re-analysis of the deposited data

How the results depend on the processing

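The alternatives were the 38000 peaks of each list by −log10 p or by signal, the 50% of each list with the highest −log10 p, 50% of a site covered, 200 bp windows around summits, 50 kb flanks, the gene body alone, and each replicate left out. At Trp63 the ectoderm excess in peaks (19) stayed positive wherever a value could be had (50% cover gives none), at 12.5 with the 38000 of highest −log10 p and between 12.5 (without ectoderm replicate 1) and 25.5 with a replicate left out. The sites of the ectoderm pair missing from Sox2-positive cells (12) numbered 11 and 13 with the equal-length lists by −log10 p and by signal. They numbered 9 with the 50% of highest −log10 p, 14 with 50% cover, 13 with summit windows, and 8 with 50 kb flanks or the gene body alone. Leaving out a replicate drops a condition, so it can only keep or raise this count. It was then 12 to 25, the 25 being without ectoderm replicate 2. The site in all 7 libraries was lost, giving 0, with either equal-length list, the 50% of highest −log10 p or 50% cover. The reverse site gave 0 with the 50% of highest −log10 p, 50% cover, 50 kb flanks and the gene body alone. With a replicate left out, which cannot lower this count either, it gave 1 to 3 (3 without Sox2-positive replicate 2). Molar sites absent from incisor (11) fell to 6 and 6 with the equal-length lists and 7 with the 50% of highest −log10 p.

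At Trp73 the ectoderm excess (2.5 peaks) was -2 with both equal-length lists, 6 with the 50% of highest −log10 p, 1 in the gene body alone, and 0.5 (without ectoderm replicate 1) to 4.5 (without replicate 2). Sites in all 7 libraries (13) came to 8 with the 50% of highest −log10 p, 7 with 50% cover, 8 with 50 kb flanks and 2 in the gene body. Sites of the ectoderm pair missing from Sox2-positive cells (6) came to 2 with the 38000 of highest −log10 p and 2 in the gene body. With a replicate left out, which cannot lower the count, they came to 6 to 8. Smaller windows and shorter lists hold fewer sites by construction, and other causes were not tested. No paired analysis was possible because the replicate numbers are only names and the counts of sites come from no model. Read depth is unknown, so an absent peak may be one not detectable at that depth.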
